A study of Homo sapiens with 9 samples.

Results

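Phosphoglycerate kinase 1 (PGK1) and RNU6-1 are a pair of genes with listed ZEB1 peaks in MiaPaCa2 clones made with editing plasmids. These peaks lay over the PGK1 start site and over the position given for RNU6-1, and the unmodified MiaPaCa2 cells had no listed peak there. The peaks described are those of the 5 deposited lists that fell in a window of 45 kb around each place. The windows ran on chromosome X from 77340000 to 77385000 for PGK1 and on chromosome 15 from 68110000 to 68155000 for RNU6-1 (hg19). The windows were chosen from the peaks' presence, position and fold in these same lists, so those values are given as a description and are not tested. In all, 10 of the 47426 peaks of the series fell in the windows. Of the ZEB1 lists, each clone held 2 of them, RKO 1 and unmodified MiaPaCa2 0, and the CTCF list of unmodified MiaPaCa2 held 5. The only peak within 5 kb outside a window was a CTCF peak 714 bp beyond the RNU6-1 window (68155714 to 68156218, fold 22.7), while the outermost peak inside lay from 68124404 to 68124703 with a fold of 4.87.

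The series maps DNA-bound protein by chromatin immunoprecipitation with sequencing (ChIP-seq). MiaPaCa2 is an established pancreatic ductal adenocarcinoma line and RKO an established colon carcinoma line, and both were profiled for ZEB1 untreated. The WT clone and the delta-Repeat clone are single lines grown from MiaPaCa2 cells by dilution, after electroporation with plasmids of the pX330A type that carry a Cas9 nickase. For the delta-Repeat clone 2 such plasmids also drove pairs of guide RNAs against the repeats that lie upstream of MIR200A and MIR200B. CTCF was profiled in untreated MiaPaCa2 cells. Every condition had 1 sample with a peak list, so no value can be set against a spread between cultures. Electroporation, growth from a single cell and the antibody lot all separate the clones from the unmodified cells and cannot be told apart here. Apart from the WT clone and the delta-Repeat clone, no list of ZEB1 in electroporated cells was analysed.

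PGK1 is an X-linked gene for a glycolytic enzyme that transfers a phosphate from 1,3-bisphosphoglycerate to ADP, and its promoter is active in nearly all cells. That promoter is a GC-rich stretch without a TATA box and is widely used to drive genes, including drug-resistance genes, in expression cassettes. RNU6-1 encodes U6, the small nuclear RNA at the catalytic centre of the spliceosome. It is transcribed by RNA polymerase III from a promoter that lies wholly before the transcribed part, and for that reason the human U6 promoter is the usual driver of guide RNAs in plasmids of the pX330 type. The labels do not say whether the plasmids used here held any PGK1 sequence. ZEB1 is a zinc-finger repressor of epithelial genes that binds E-boxes, and CTCF is a zinc-finger protein of insulators and loop borders.

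The PGK1 promoter is shown because the strongest ZEB1 peak private to the clones lay over the start of this gene. The 250 bases before the RefSeq start are given 5′ to 3′ on the coding strand (RefSeq, GRCh38.p14, chrX:78103998-78104247, plus strand). Capitals mark matches on either strand to the GC box GGGCGG, the CCAAT box and the hypoxia response core ACGTG.
PGK1: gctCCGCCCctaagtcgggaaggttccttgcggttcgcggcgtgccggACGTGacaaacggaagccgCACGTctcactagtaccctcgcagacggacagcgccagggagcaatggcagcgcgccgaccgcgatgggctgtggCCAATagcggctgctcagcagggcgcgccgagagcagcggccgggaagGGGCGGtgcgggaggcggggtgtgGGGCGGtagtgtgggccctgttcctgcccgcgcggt
The stretch held 3 matches to GGGCGG, beginning 247, 60 and 36 bases before the start. It also held 1 match to CCAAT at 108 bases, and 2 to ACGTG at 202 and 183 bases. Of 35116 RefSeq promoter stretches of the same length, 42.6% held GGGCGG on either strand, 32.0% CCAAT and 18.5% ACGTG. The ZEB1 E-box CAGGTG, searched on both strands, had 0 matches and is present in 17.5% of promoter stretches. Neither TATATA nor the octamer ATTTGCAT was found on either strand, and these are present in 3.73% and 1.63% of stretches. Its GC content of 71.2% was above that of 81.9% of promoters. The RefSeq start is a GRCh38 position and was not carried over to hg19, so the place of these letters within the peak was not determined. RNU6-1 has no entry in the promoter table used here.

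At PGK1, the WT clone and the delta-Repeat clone each had a single peak that straddled the start site, taken here as hg19 position 77359666. In the WT clone the peak ran from 77359211 to 77359964, a width of 754 bp, from 455 bp before the start to 298 bp into the gene. In the delta-Repeat clone it ran from 77359252 to 77359959, a width of 708 bp, from 414 bp before to 293 bp after. The start edges thus differed by 41 bp and the far edges by 5 bp, and the narrower peak lay wholly within the wider one. The summits lay 59 and 27 bp before the start, 32 bp apart. The lists of MiaPaCa2 and RKO held no ZEB1 peak within 500 bp of the start, and neither did the CTCF list.

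At RNU6-1, both clones and, more weakly, RKO held a peak. Distances are given from hg19 position 68132280, and since the strand of the gene is not in the tables used here, whether the peaks lay on the promoter side was not determined. The WT clone peak ran from 68132259 to 68132754 (496 bp), that is from 21 bp below this position to 474 bp above it. The delta-Repeat clone peak ran from 68132245 to 68132714 (470 bp), from 35 bp below to 434 bp above. The RKO peak was the narrowest, from 68132397 to 68132635 (239 bp), and lay wholly inside both clone peaks. The U6 gene is 107 bp long, so most of each clone peak lay outside the transcribed part. Summits lay 281 bp above the position in the WT clone, 243 bp in RKO and 161 bp in the delta-Repeat clone, a spread of 120 bp against 32 bp at PGK1. MiaPaCa2 had neither a ZEB1 nor a CTCF peak within 500 bp.

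**Figure D1:**
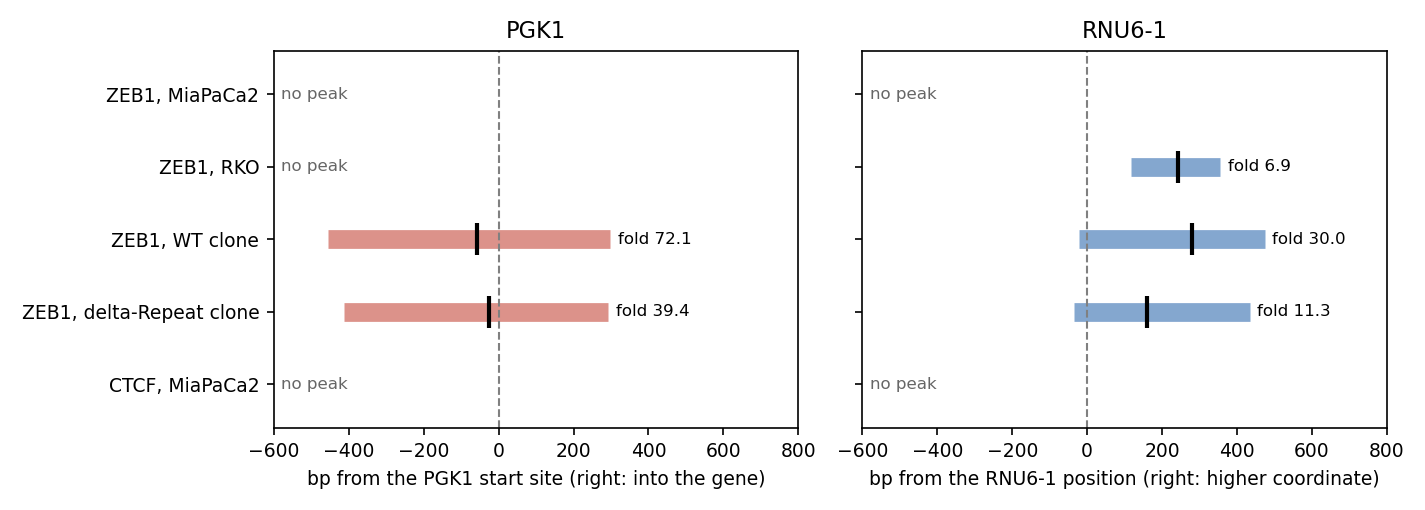
Extent of each peak (bar) and its summit (black tick) in bp from the PGK1 start site (left) and from the RNU6-1 position (right), with 1 row per list and the authors' fold beside each bar. At PGK1 only the 2 clones have a bar, with far edges 5 bp apart, and at RNU6-1 the RKO bar lies inside those of the clones. "No peak" refers to the stretch drawn, and CTCF peaks farther out are not shown.

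By the authors' fold enrichment, which compares the signal at a summit with the caller's background, PGK1 was among the leading peaks of both clones. Its fold was 72.1 in the WT clone, which put it second among 1515 peaks. For the delta-Repeat clone the fold was 39.4 and the place number 9 of 2160. Its −log10 q values were 251 and 119. In the WT clone the next stronger peak (90097581 to 90099869 of chromosome 16) had a fold of 81.2 and the next weaker (45126754 to 45127594 of chromosome 22) one of 52.4. In the delta-Repeat clone the neighbours in rank were closer, with a fold of 40.2 at 144816178 to 144816860 of chromosome 8 and of 39.0 at 11761069 to 11761759 of chromosome 3. All 4 of these neighbours overlapped a MiaPaCa2 peak.

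RNU6-1 stood lower in each list. For the WT clone its fold was 30.0, with rank 27 of 1515 and a −log10 q of 82.4. The delta-Repeat clone gave a fold of 11.3, rank 380 of 2160 and a −log10 q of 19.7, and RKO a fold of 6.94, rank 2565 of 7193 and a −log10 q of 10.03. The RKO peak thus lay in the upper part of a long list and only just passed a stricter threshold of −log10 q at least 10. In the WT clone its neighbours in rank had folds of 30.04 (89622266 to 89623134 of chromosome 10) and 29.8 (238346720 to 238347327 of chromosome 2).

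The height of each peak in sequenced fragments could be worked back from the deposited values. MACS2, the peak caller, writes the fold as pileup plus 1 over background plus 1, and the p-value as a Poisson tail. Pileup is the number of fragments covering the summit, and background the number expected there. Solved together, the fold and the −log10 p gave a whole-number pileup, within 0.01, in 100% of the peaks of every list. The lowest background of a list is, in the caller's usual design, the mean fragment coverage of the genome, although the labels do not give the options used. MiaPaCa2 had 1.083 fragments by this measure, the WT clone 1.079, the delta-Repeat clone 1.18, RKO 1.43 and CTCF 1.12. These values differed little between MiaPaCa2 and the WT clone, but they are not a measure of total read depth, and the lists differed in length (4804 and 1515 peaks).

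In the WT clone 149 fragments covered the PGK1 summit (exact Poisson 95% interval 126 to 175). The delta-Repeat clone had 85 there (67.9 to 105.1). Intervals of this kind cover counting error only. The background under the peak was 1.079 and 1.18 fragments in that order, equal to the lowest of each list. The background used by the caller was therefore not raised at this place in either list. The labels do not name the control library or say whether the clones had separate ones. At RNU6-1 the background was 1.10958 times the lowest in both clone lists, so the clones may share 1 control. Their backgrounds are therefore not taken as separate observations. None of the 4 input samples of the series is labelled as from a clone. Whether the clones held more DNA copies of this stretch was therefore not tested. A background equal to the lowest was not rare, and 170 of the 1515 WT clone peaks and 214 of the 2160 delta-Repeat clone peaks had it. Ordered by fragments and not by fold, PGK1 was number 6 of the WT clone list and number 26 of the delta-Repeat list, lower than its places 2 and 9 by fold.

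At RNU6-1 the WT clone had 65 fragments (50.2 to 82.8), the delta-Repeat clone 25 (16.2 to 36.9) and RKO 19 (11.4 to 29.7). The backgrounds were 1.2, 1.31 and 1.88 fragments, between 1.11 and 1.32 times the lowest of their lists. The counting intervals of the delta-Repeat clone and RKO overlapped, and that of the WT clone lay above both. The pileups were not scaled for coverage and the intervals cover counting error only, so a difference between the samples was not tested. In the MiaPaCa2 list the smallest pileup of any peak was 8 fragments, and peaks of 8 were called where the background lay within 20% of its lowest value. An unlisted place can still hold fragments, but 8 was enough for a peak in that library at places of low background, against 149 and 65 in the WT clone. The MiaPaCa2 signal and background at these 2 places are not in the peak lists.

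**Figure D2:**
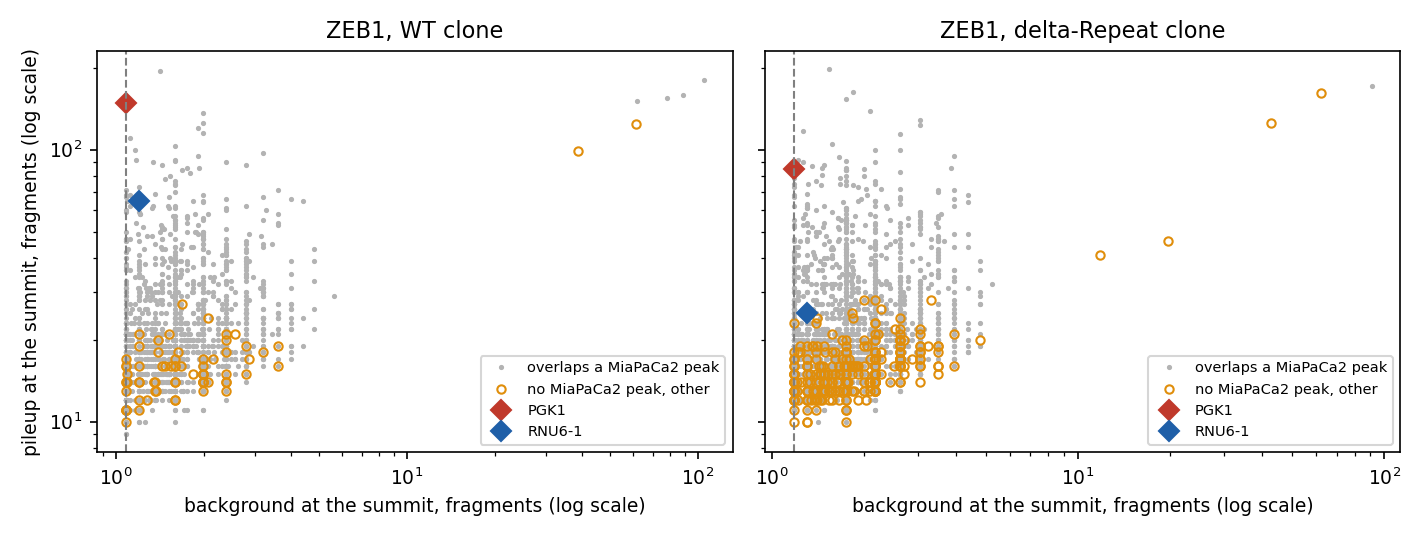
Pileup at the summit against background at the summit, both in fragments on log scales, for every ZEB1 peak of the WT clone (left) and the delta-Repeat clone (right), and the dashed line is the lowest background of the list. PGK1 sits on that line at 149 and 85 fragments, above the open circles (peaks without a MiaPaCa2 counterpart) except, in the delta-Repeat clone, a few far to the right at high background. RNU6-1 lies just beside the line, clear of most open circles at 65 fragments in the WT clone and among them at 25 in the delta-Repeat clone.

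PGK1 and, in the WT clone, RNU6-1 had far higher folds than the other clone peaks without a MiaPaCa2 counterpart. By an overlap of at least 1 bp, 73 of 1515 WT clone peaks (4.82%) and 289 of 2160 delta-Repeat clone peaks (13.4%) had no MiaPaCa2 counterpart. These shares depended on the matching rule, and with an overlap of 50% of both peaks they were 36.2% and 38.1%, with summits within 100 bp 32.9% and 41.3%, and with the MiaPaCa2 list shortened to the clone list's length 27.7% and 32.0%. By the overlap of 1 bp PGK1 was the first of both sets by fold and RNU6-1 the second of both, a position that the choice of these genes already implied. The remaining 71 in the WT clone had a median fold of 5.78 and reached at most 10.4. The remaining 287 in the delta-Repeat clone had a median fold of 5.66 and reached at most 11.01, close to the 11.3 of RNU6-1 there. In the WT clone 362 peaks had a fold above that 10.4, PGK1 and RNU6-1 among them. Since 10.4 is the highest fold of the other peaks without a counterpart, all the rest of these had a MiaPaCa2 peak by construction.

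Of the WT clone peaks without a counterpart, the next by fold were 13284273 to 13284587 of chromosome X (10.4, with 27 fragments), 71684334 to 71684695 of chromosome X (10.01, with 21 fragments) and 71055750 to 71056012 of chromosome 15 (9.1, with 19 fragments). Those of the delta-Repeat clone were 50265104 to 50265489 of chromosome 3 (11.01), 139294420 to 139294678 of chromosome 9 (10.4) and 89488238 to 89488589 of chromosome 1 (10.01). The last 3 were in RKO and absent from the WT clone, and those on chromosomes 3 and 9 overlapped a CTCF peak of MiaPaCa2. In fragments RNU6-1 of the delta-Repeat clone, with 25, was close to these, which had 23, 24 and 23, whereas PGK1 with 85 was not.

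**Figure D3:**
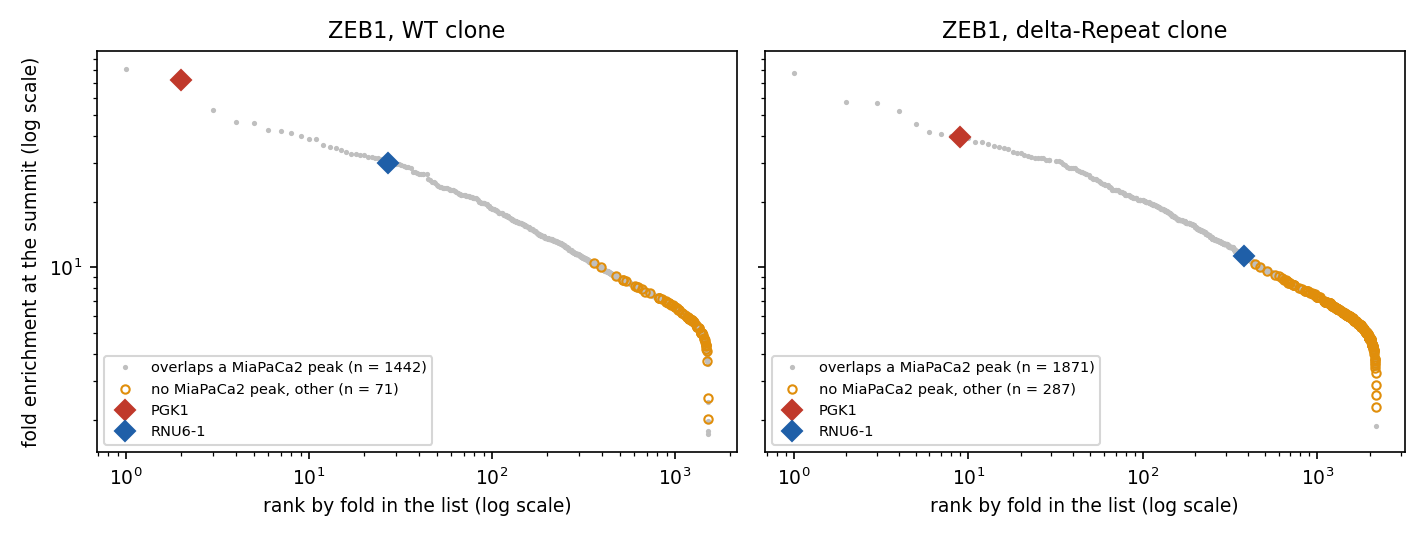
The authors' fold at the summit against rank by fold, both on log scales, for the WT clone (left) and the delta-Repeat clone (right), with open circles for peaks that overlap no MiaPaCa2 peak. In the WT clone PGK1 (72.1) and RNU6-1 (30.0) stand clear of the other 71 open circles, which reach 10.4, and in the delta-Repeat clone RNU6-1 (11.3) lies at the upper end of the other 287, which reach 11.01.

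PGK1 and RNU6-1 showed different patterns over the 4 ZEB1 lists. PGK1 was in both clones and neither unmodified line, a pattern found for 10 WT clone peaks (0.66%) and 9 delta-Repeat clone peaks (0.417%). RNU6-1 was in both clones and RKO but not MiaPaCa2, as were 6 WT clone peaks (0.396%) and 6 delta-Repeat clone peaks (0.278%). Per the labels RKO cells had no treatment. Their RNU6-1 peak, with 19 fragments and a fold of 6.94, was near the medians of the RKO list (20 fragments and a fold of 6.04). For comparison, 76.8% of all WT clone peaks and 71.1% of all delta-Repeat clone peaks had a counterpart in RKO.

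Among the peaks with the PGK1 pattern, the strongest after it was that on chromosome X from 13284273 to 13284587, with a WT clone fold of 10.4 (27 fragments) and a delta-Repeat clone fold of 8.77 (24 fragments). The next were 10552082 to 10552334 of chromosome 3 with folds of 7.74 and 5.85, 2271569 to 2271778 of chromosome 19 with 5.94 and 6.44, and 29863476 to 29863675 of chromosome 15 with 5.77 and 7.8. The last 3 had between 11 and 16 fragments in either clone, against 149 and 85 at PGK1. The 5 others with the RNU6-1 pattern reached a fold of at most 8.76 and 20 fragments in the WT clone.

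The surroundings of PGK1 were alike in all 4 ZEB1 lists. The nearest ZEB1 peak on the side of lower coordinates ended about 79.2 kb away in each of MiaPaCa2, WT clone and delta-Repeat clone, and 79.1 kb away in RKO. This peak had a fold of 8.18 (17 fragments) in MiaPaCa2, 8.18 (16 fragments) in the WT clone, 8.1 (17 fragments) in the delta-Repeat clone and 7.16 (24 fragments) in RKO. On the other side the nearest peak began 2705 kb away in all 4 lists, with 19 fragments in MiaPaCa2, the delta-Repeat clone and RKO and 16 in the WT clone. The flanking peaks thus held almost equal numbers of fragments in the 3 MiaPaCa2 lists, while the peak at the PGK1 start was in the clones only. Around RNU6-1 the nearest lower peak ended 318.9 kb away in MiaPaCa2, RKO and the delta-Repeat clone (20, 26 and 25 fragments) and was not in the WT clone list, where the nearest was 1139 kb away. On the upper side the nearest peak began 711 kb away in MiaPaCa2 and RKO (18 and 19 fragments). Neither clone had this peak, and the nearest in both began 1320 kb away, with 20 (WT clone) and 30 fragments (delta-Repeat clone).

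No CTCF peak lay within 500 bp of the PGK1 start or of the RNU6-1 position. The PGK1 window held 3 CTCF peaks, with folds of 6.02, 6.77 and 6.02 and summits 11.6, 15.9 and 20.3 kb from the start, and ranks by fold of 27518, 25172 and 27518 among 31754 peaks. The RNU6-1 window held 2, with folds of 4.87 and 14.3 and summits 7.74 and 3.34 kb away on the lower side. Their pileups were 15, 17 and 15 fragments near PGK1 and 18 and 37 near RNU6-1.

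Peak width was compared with that of the 20 peaks nearest in rank by fold in the same list. PGK1 was of ordinary width in the WT clone, with 754 bp against a median of 765.5 bp (424 to 2289), and 10 of the 20 were narrower. In the delta-Repeat clone it had 708 bp against a median of 865 bp, and 5 of the 20 were narrower. RNU6-1 was narrower than all 20 peaks of like fold in the WT clone, with 496 bp against a median of 736.5 bp and a lowest value of 564 bp. Among the 50 peaks nearest in rank by fold, 4 were narrower than it. In the delta-Repeat clone (470 against 486.5 bp, 9 of 20 narrower) it had an ordinary width. In RKO it had 239 bp against 342.5 bp, with 5 of 20 narrower.

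**Figure D4:**
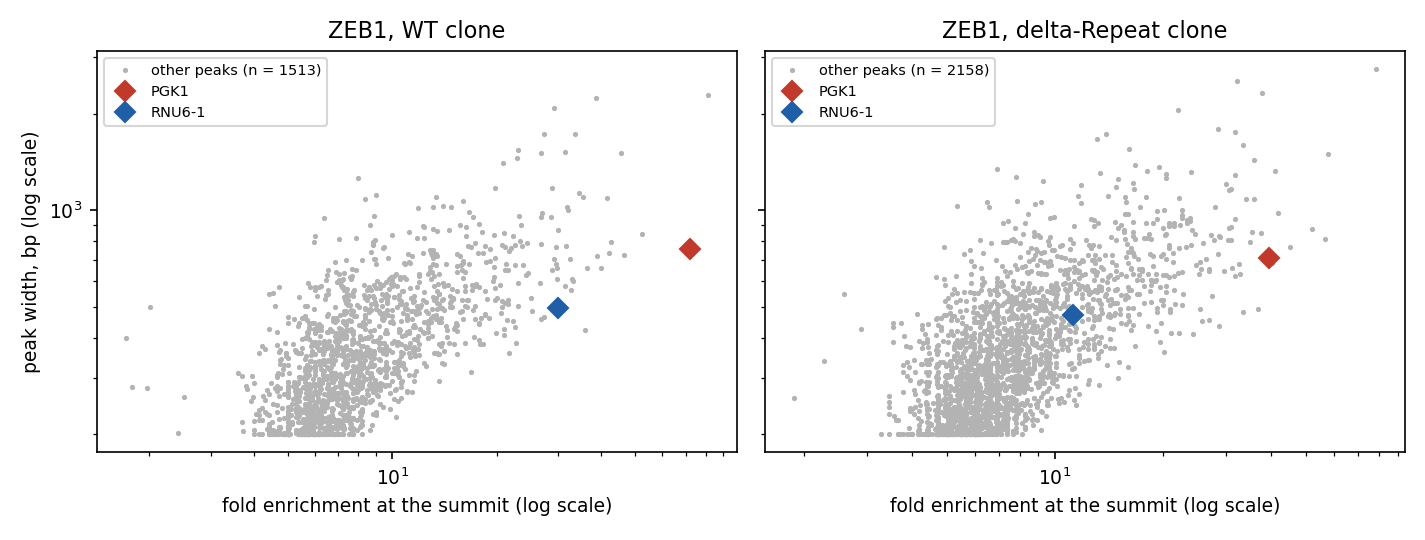
Peak width in bp against the authors' fold, both on log scales, for each ZEB1 peak of the WT clone (left) and the delta-Repeat clone (right). Stronger peaks are wider, PGK1 (754 and 708 bp) lies among peaks of like fold or toward their lower side, and RNU6-1 of the WT clone (496 bp) lies at the lower border for its fold.

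PGK1 and RNU6-1 both had more fragments in the WT clone than in the delta-Repeat clone, while the median shared peak had fewer. Of the peaks that overlapped 1 peak of the other clone and no more, there were 1059 pairs. The ratio of WT clone to delta-Repeat clone pileup had a median of 0.871 over them, with 5th and 95th percentiles of 0.518 and 1.5. The ratio was 1.75 at PGK1 (149 and 85 fragments) and 2.6 at RNU6-1 (65 and 25). Pairs with a ratio at least as high numbered 27 (2.55%) for PGK1 and 3 (0.283%) for RNU6-1, themselves included. Among the 100 pairs strongest in the WT clone, which are closer to these peaks in strength, the median ratio was 0.982 and the 95th percentile 1.77. In that set 7 pairs reached the ratio of PGK1 and 2 that of RNU6-1, so the PGK1 ratio was within the range of strong peaks. The counting intervals of the pileups, which were not scaled for coverage, did not overlap between the clones at either gene. These ratios compare 1 library of each clone. The genes were picked with their WT clone rank in view, which favours high ratios.

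Within these 1059 pairs PGK1 had place 2 by fold in the WT clone and place 9 in the other. RNU6-1 had places 25 and 347. The 20 pairs within 10 places of RNU6-1 in the WT clone had delta-Repeat clone places between 5 and 253, with a median of 37, all higher than that of RNU6-1. The 11 pairs within 10 places of PGK1 had delta-Repeat clone places between 1 and 44.

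**Figure D5:**
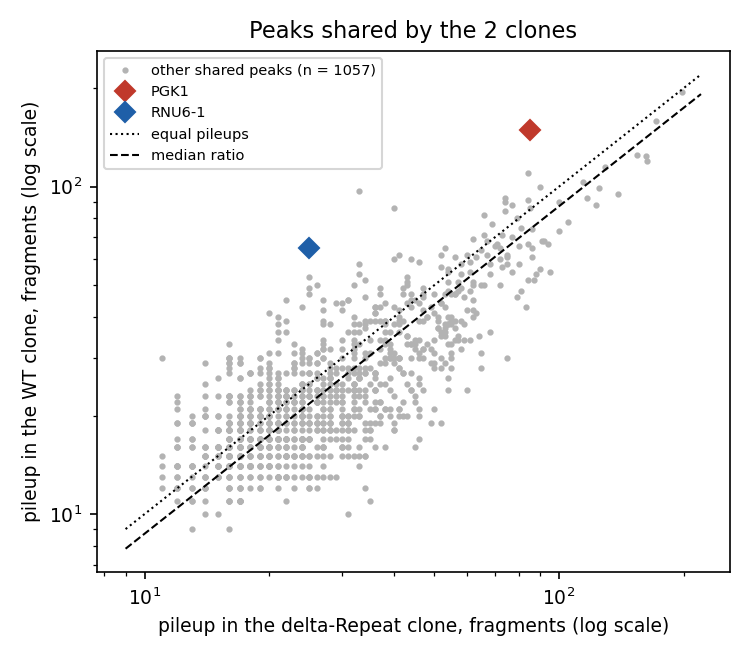
Pileup at the summit in the WT clone against that in the delta-Repeat clone, in fragments on log scales, for the 1059 peaks paired one to one, with lines for equal pileups (dotted) and for the median ratio of 0.871 (dashed). PGK1 (149 and 85) and RNU6-1 (65 and 25) both lie above the dotted line, at the upper border of the cloud.

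The edges of the PGK1 peak coincided closely in both clones. Its start and end differed by 41 and 5 bp, where the median over the 1059 pairs was 61 and 57 bp, and ends within 5 bp were seen in 6.7% of pairs. The sum of both differences was 46 bp, and 111 pairs had a sum no larger. At RNU6-1 the edges differed by 14 and 40 bp and 155 pairs had a sum as small, but the summits lay 120 bp apart against a median of 48 bp. Among the 100 pairs strongest in the WT clone both edges lay within 50 bp in 27, so the close edges were shared with many strong peaks.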

How the data were processed

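Per the submitters' processing notes, reads were handled with Bowtie2 2.2.6, SAMtools and MACS2 2.1.0.20150731 on hg19/GRCh37. For controls, pooling and caller options the sources used here give nothing. Each deposited peak has, per the authors' peak caller, a fold (a linear ratio), −log10 p and −log10 q values, a score (10 times the −log10 q, not used) and other values such as the summit. Fold was ranked only within its list. Pileup and background were computed here from fold and −log10 p with a pseudocount of 1, by code that recovered 2000 of 2000 simulated pairs. Matching code found 200 of 200 planted matches under each rule. Lists were matched by an overlap of at least 1 bp, in Python 3.11.15 (scipy 1.17.1, pandas 2.3.3, numpy 2.4.6, matplotlib 3.10.9). The 4 input samples were not analysed here. Members and lists were chosen with earlier results of these data known. Peaks named are the members, their neighbours in rank, and the strongest clone peaks without a MiaPaCa2 or an unmodified counterpart. No hg19 annotation was used, so other promoters found in plasmids were not examined and other peaks are given by position. The PGK1 start and the RNU6-1 position are those of the rule that defined the windows. With 1 sample per condition no test was made.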

Additional observations from a re-analysis of the deposited data

How the results depend on the processing

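No paired analysis was possible because each condition has 1 sample. The number of WT clone peaks without a MiaPaCa2 counterpart, 73 by any overlap, was 549 when 50% of both peaks had to overlap, 498 with summits within 100 bp, 12 with the stricter threshold in the clone lists (fold at least 5, −log10 q at least 10) and 420 with the MiaPaCa2 list shortened to the length of the clone list. For the delta-Repeat clone the number, 289, became 822, 892, 37 and 692 in the same order. The stricter threshold also shortened the clone lists, so 12 is out of 786 WT clone peaks (1.53%) and 37 out of 1057 delta-Repeat clone peaks (3.50%). Peaks in both clones and neither unmodified line, 10 by any overlap, numbered 153, 67 and 2 under the first 3 of these settings. The rule of 50% overlap and the shortened list can only remove matches, by construction. The summit rule needs no overlap, so it can also add matches. Fewer matches between the clones lower the number of peaks in both, so the direction of that number was not fixed in advance. When any peak within 1 kb counted as present, the numbers were 65, 244 and 9. PGK1 stayed the strongest peak without a counterpart in both clones in all 6 settings. It was chosen with its high fold and its absence from MiaPaCa2 known, so this place was largely implied by the choice. RNU6-1 ranged from place 2 to 6 in the WT clone and from place 2 to 79 in the delta-Repeat clone, and ordering by −log10 q put it at place 4 in the latter. With a Poisson tail that includes the pileup, whole-number pileups fell from 100% to 2.25% for CTCF, 1.76% for the delta-Repeat clone, 1.39% for the WT clone, 1.36% for RKO and 1.1% for MiaPaCa2, so that form was not used. For width, the 50 peaks nearest by fold and the 20 nearest by −log10 q were also used. In the WT clone 25 of 50 and 9 of 20 were narrower than PGK1, and 4 of 50 and 1 of 20 narrower than RNU6-1. In the delta-Repeat clone the numbers were 16 and 3 for PGK1 and 25 and 13 for RNU6-1. Total read depth is not in the lists, and an absent peak is not an absence of fragments.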

Other observations

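Of the 10 WT clone peaks found in both clones and in neither unmodified line, 2 lay at places of very high background. On chromosome 21 (9827103 to 9827602) the pileups were 124 (WT clone) and 162 fragments (delta-Repeat clone) over backgrounds of 61.1 and 61.98, with folds of 2.01 and 2.59. On chromosome 16 (33963120 to 33963381) they were 99 and 125 fragments over 38.7 and 42.8, with folds of 2.52 and 2.88. PGK1 had 149 and 85 fragments over the lowest backgrounds of the lists, more than these places in the WT clone and fewer in the delta-Repeat clone. By fold these places were among the last of both lists.

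In the 3 MiaPaCa2 ZEB1 lists, shared peaks had fewer fragments in the clones than in the unmodified cells. The median ratio of pileups was 0.708 over 1370 pairs of WT clone and MiaPaCa2 peaks, and 0.84 over 1733 pairs of delta-Repeat clone and MiaPaCa2 peaks. The lowest backgrounds were 1.079, 1.18 and 1.083 fragments for the WT clone, the delta-Repeat clone and MiaPaCa2.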
